A study of Rattus norvegicus with 6 samples.

Results

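The experiment described here compared glomeruli of AT1R transgenic rats given AC1903 with glomeruli of AT1R transgenic rats given vehicle. It took 4 of the study's 6 libraries of polyadenylated RNA, 2 per side, chosen by the genotype and treatment in the sample labels and by the count column that each label names. All 4 rats were Sprague Dawley and carried the AT1R transgene, so both sides share the transgene and differ in AC1903. The AC1903 rats, replicates 1 and 2, were 23.0 and 20.4 weeks old, and the vehicle rats were 20.4 and 17.4 weeks old, so age was not balanced between the groups. The other 2 libraries came from wild-type (WT) Sprague Dawley rats of 20.4 and 21.9 weeks that were also labelled with vehicle. They are given only for reference. Where values are given as one pair against another, AC1903 comes first and vehicle second, each with replicate 1 before replicate 2. The labels give no dose, route or length of the AC1903 treatment, no promoter for the transgene, and no word on how many rats or kidneys went into a sample. Each group's pair had unequal ages, which makes them separate animals, and the p-values below measure the spread between these few samples.

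AT1R, the angiotensin II type 1 receptor, couples through Gq to calcium release and is the receptor through which angiotensin II constricts vessels and, in podocytes, alters the actin cytoskeleton. In the AT1R transgenic rat line known from the literature the receptor is placed in podocytes, the epithelial cells that wrap the glomerular capillaries, and the animals develop proteinuria and glomerular scarring. TRPC5 is a calcium-permeable cation channel that is activated downstream of AT1R and Rac1 in podocytes, and AC1903 is a small-molecule inhibitor of that channel. The comparison therefore asks which transcripts differ when TRPC5 is inhibited in rats with excess receptor signalling.

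Total expected counts were 12325515 and 12637582 with AC1903 and 13464600 and 14230770 with vehicle. The WT libraries were deeper, at 25045081 and 36026772. Levels are CPM, the counts of a gene for every 1000000 counts of the library, after scaling by the trimmed mean of M values, and each pair of values is replicate 1, then replicate 2. The smallest level that 3 counts represent lay between 0.2108 and 0.2434 CPM in the 4 transgenic libraries. The tissue label was checked against podocyte genes. NPHS1, nephrin of the slit diaphragm, stood at 1481 and 2127 CPM with AC1903 and 2361 and 1271 CPM with vehicle, and PODXL, podocalyxin, at 3615 and 4601 against 4839 and 2966 CPM, so all 4 libraries carried strong podocyte signal. Tubular transcripts were present too, for example UMOD of the thick ascending limb at 225 and 192 CPM with vehicle. In bulk samples, fewer cells of a type and less RNA per cell cannot be told apart. Transcripts of the mitochondrial genome made up 33.95% and 31.98% of the counts with AC1903 and 25.32% and 40.49% with vehicle, so the vehicle libraries bracketed the AC1903 libraries.

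No gene passed an adjusted p of 0.05 in edgeR's quasi-likelihood test (0 of 13426 genes tested, 0.0%), and the smallest adjusted p was 0.446. At an unadjusted p under 0.05 the same test gave 1090 genes (8.12%), of which 718 were higher with AC1903 (5.35%) and 372 lower (2.77%). DESeq2 called 62 of 14744 genes (0.421%), 55 of them higher (0.373%) and 7 lower (0.0475%), and limma-voom called 0. Both AC1903 libraries lay above both vehicle libraries for 2667 genes (19.9%) and below both for 2474 genes (18.4%), so a separation of the libraries was common for any gene. Of the 62 DESeq2 calls, 59 had separated groups and 61 had an unadjusted edgeR p under 0.05. Among them 12 stood in at least 1 of the leukocyte lists, 7 in the interferon or MHC class I lists and 37 in none of the lists used here. Only 52 of the 62 had a symbol, and an ID without one cannot stand in a list. Of the 13426 genes tested, the leukocyte lists held 37, 39, 16, 7 and 5, with some members shared. The interferon and MHC class I lists held 55 and 18. The genes below are therefore described by their values in each library, and "passed" always names the tool.

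The 15 genes with a symbol, separated groups and the smallest p among those higher with AC1903 were led by NLRC5, the transactivator of MHC class I genes. NLRC5 stood at 18.7 and 16.9 CPM with AC1903 and 3.33 and 4.23 CPM with vehicle, a log2 difference of 2.24 (SE 0.28; edgeR adjusted p = 0.446, DESeq2 adjusted p = 1.79e-06). Its WT libraries, at 7.72 and 10.003 CPM, lay between the 2 transgenic groups. PTPRC, which encodes the pan-leukocyte surface phosphatase CD45, stood at 33.9 and 56.9 against 12.7 and 14.2 CPM (log2 difference 1.75, SE 0.26). The integrin chains followed. ITGA4, the alpha 4 chain used by lymphocytes and monocytes, stood at 8.57 and 17.7 CPM with AC1903 and 2.26 and 2.28 CPM with vehicle, and ITGB2, the beta 2 chain common to leukocyte integrins, at 29.9 and 67.5 against 11.6 and 11.6 CPM. Both genes were higher in AC1903 replicate 2 than in replicate 1. That replicate 1 also lay above vehicle was fixed by the rule that picked them. EMR1, the F4/80 antigen of macrophages, showed log2 1.73 with SE 0.33.

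Other members of the same set stood in none of the leukocyte lists used here, and whether leukocytes express them was not tested. CYP26B1, which degrades retinoic acid, stood at 60.7 and 53.5 CPM with AC1903 against 17.3 and 26.0 CPM with vehicle and 23.0 and 25.6 CPM in WT, so here the AC1903 libraries stood apart from the other 4. ZBTB16, a transcriptional repressor known as a strongly glucocorticoid-induced gene, gave the steepest difference of the 15. It stood at 119 and 45.3 CPM with AC1903, 6.44 and 1.14 CPM with vehicle and 2.73 and 0.976 CPM in WT (log2 difference 4.40, SE 0.76). The 2 AC1903 libraries differed from each other for this gene, yet both lay far above the other 4. An ID paired with SLFN12 and SLFN12L, Schlafen genes of the interferon response, stood at 54.7 and 98.2 against 10.6 and 17.7 CPM, and the ID paired with SLFN12 alone at 79.2 and 70.8 against 36.6 and 40.9 CPM. RNF213, a large interferon-inducible ubiquitin ligase, stood at 132 and 114 against 68.3 and 72.0 CPM, and APOL2/APOL3, apolipoprotein L genes, at 142 and 88.5 against 45.8 and 51.4 CPM. WT lay beside AC1903 for APOL2/APOL3, at 84.0 and 105 CPM. It lay between the groups for RNF213 (83.8 and 90.1 CPM), for SLFN12/SLFN12L (20.3 and 35.1 CPM) and for SLFN12 alone (53.4 and 70.1 CPM). GDA, guanine deaminase, stood at 7.40 and 10.5 against 2.34 and 1.95 CPM, C15orf48 at 4.58 and 13.7 against 1.06 and 0.733 CPM, and NXPE1 at 30.6 and 19.8 against 8.21 and 8.95 CPM. For GDA, C15orf48 and NXPE1 WT lay nearer vehicle, at 2.94 and 2.98, 1.94 and 2.68 and 13.0 and 11.8 CPM. HNRNPAB, an RNA-binding protein, also met the rule with 34.6 and 35.8 against 7.08 and 14.5 CPM. For this ID WT stood near AC1903, at 30.9 and 30.8 CPM. However, 2 gene IDs bear this symbol. The sum over both IDs was 202.7 and 203.8 CPM with AC1903 and 196.5 and 231.3 CPM with vehicle, and those sums overlapped. All 15 passed in DESeq2.

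**Figure D1:**
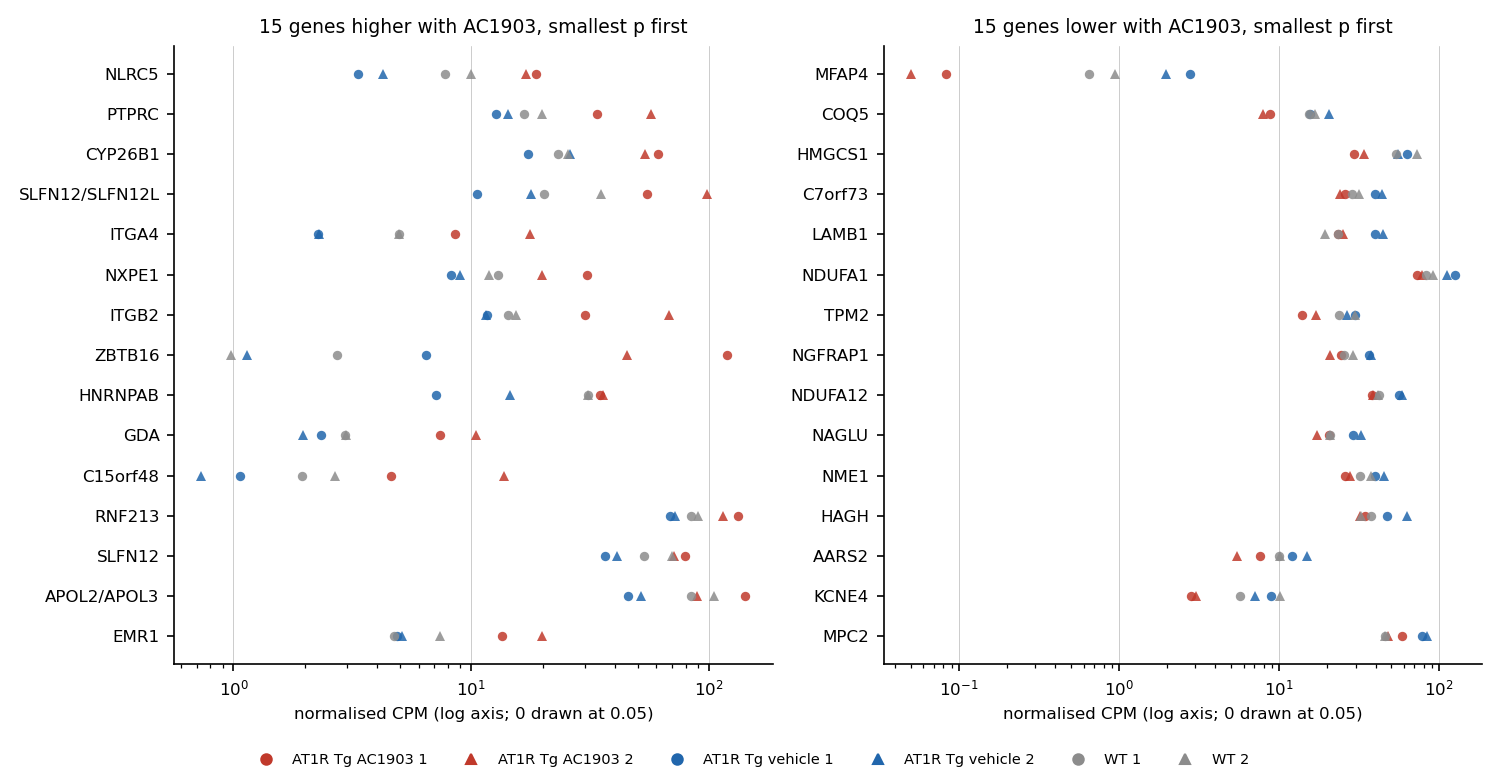
CPM on a log axis for the 15 genes higher and the 15 genes lower with AC1903 that had the smallest edgeR p, 1 point per library, with colour for the group and shape for the replicate. The red AC1903 points lie on one side of the blue vehicle points in every row, which the choice of genes fixes, while the grey WT points lie between the groups for NLRC5 and beside the AC1903 points for LAMB1 and NDUFA12.

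The 15 genes lower with AC1903 were led by MFAP4. MFAP4, a microfibril-associated matrix protein, had 1 count or none with AC1903 (0.0832 and 0 CPM) and 2.76 and 1.95 CPM with vehicle, so it lay under the level of 3 counts in both AC1903 libraries. COQ5, a methyltransferase of ubiquinone synthesis, stood at 8.73 and 7.91 CPM with AC1903 and 15.6 and 20.6 CPM with vehicle (log2 difference -1.12, SE 0.23). HMGCS1, an enzyme upstream of mevalonate, was at 29.4 and 33.7 against 62.6 and 55.1 CPM (log2 difference -0.90, SE 0.19). With NDUFA1, a subunit of respiratory complex I at 72.3 and 77.9 against 125 and 111 CPM, these were the 3 of the 15 that passed in DESeq2 (COQ5 adjusted p = 0.0413, HMGCS1 0.0296, NDUFA1 0.049). NDUFA12 of the same complex stood at 38.0 and 38.4 against 56.1 and 58.7 CPM. LAMB1, a laminin beta chain of immature and mesangial matrix, stood at 23.4 and 24.9 CPM with AC1903, 39.6 and 44.8 CPM with vehicle and 23.2 and 19.2 CPM in WT, so the AC1903 values were close to those of WT. TPM2, the smooth muscle beta tropomyosin, stood at 14.0 and 17.1 against 29.6 and 26.5 CPM, and KCNE4, an accessory subunit of potassium channels, at 2.83 and 3.04 against 8.85 and 7.08 CPM. For both, WT lay with vehicle (23.7 and 29.98 and 5.67 and 10.1 CPM). The remaining members were MPC2 of the mitochondrial pyruvate carrier (58.6 and 48.1 against 78.0 and 83.7 CPM), AARS2, the mitochondrial alanyl-tRNA synthetase (7.57 and 5.44 against 12 and 15 CPM), the lysosomal enzyme NAGLU, the nucleoside diphosphate kinase NME1, the glyoxalase HAGH, NGFRAP1 and C7orf73. Their log2 differences ran from -1.05 for AARS2 to -0.60 for MPC2.

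Functional lists were then described by how many members had separated libraries, beside 19.9% higher and 18.4% lower over all genes. The lists with the highest shares above vehicle were MHC class I and antigen processing (13 of 18, 72.2%), leukocyte integrins and Fc receptor signalling (28 of 39, 71.8%), macrophage and monocyte markers (26 of 37, 70.3%) and T and NK lymphocyte markers (10 of 16, 62.5%), and none of their members lay below. The highest shares below vehicle were in nuclear-encoded respiratory chain subunits (53 of 85, 62.4%), cytosolic ribosomal proteins (37 of 72, 51.4%), cholesterol synthesis (16 of 32, 50%) and mitochondrial ribosomal proteins (36 of 74, 48.6%). Podocyte markers had the smallest share of separated members among the lists of resident glomerular cells, 3 above and 3 below of 44 (6.82% each way). Over all genes the median log2 difference was -0.02.

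**Figure D2:**
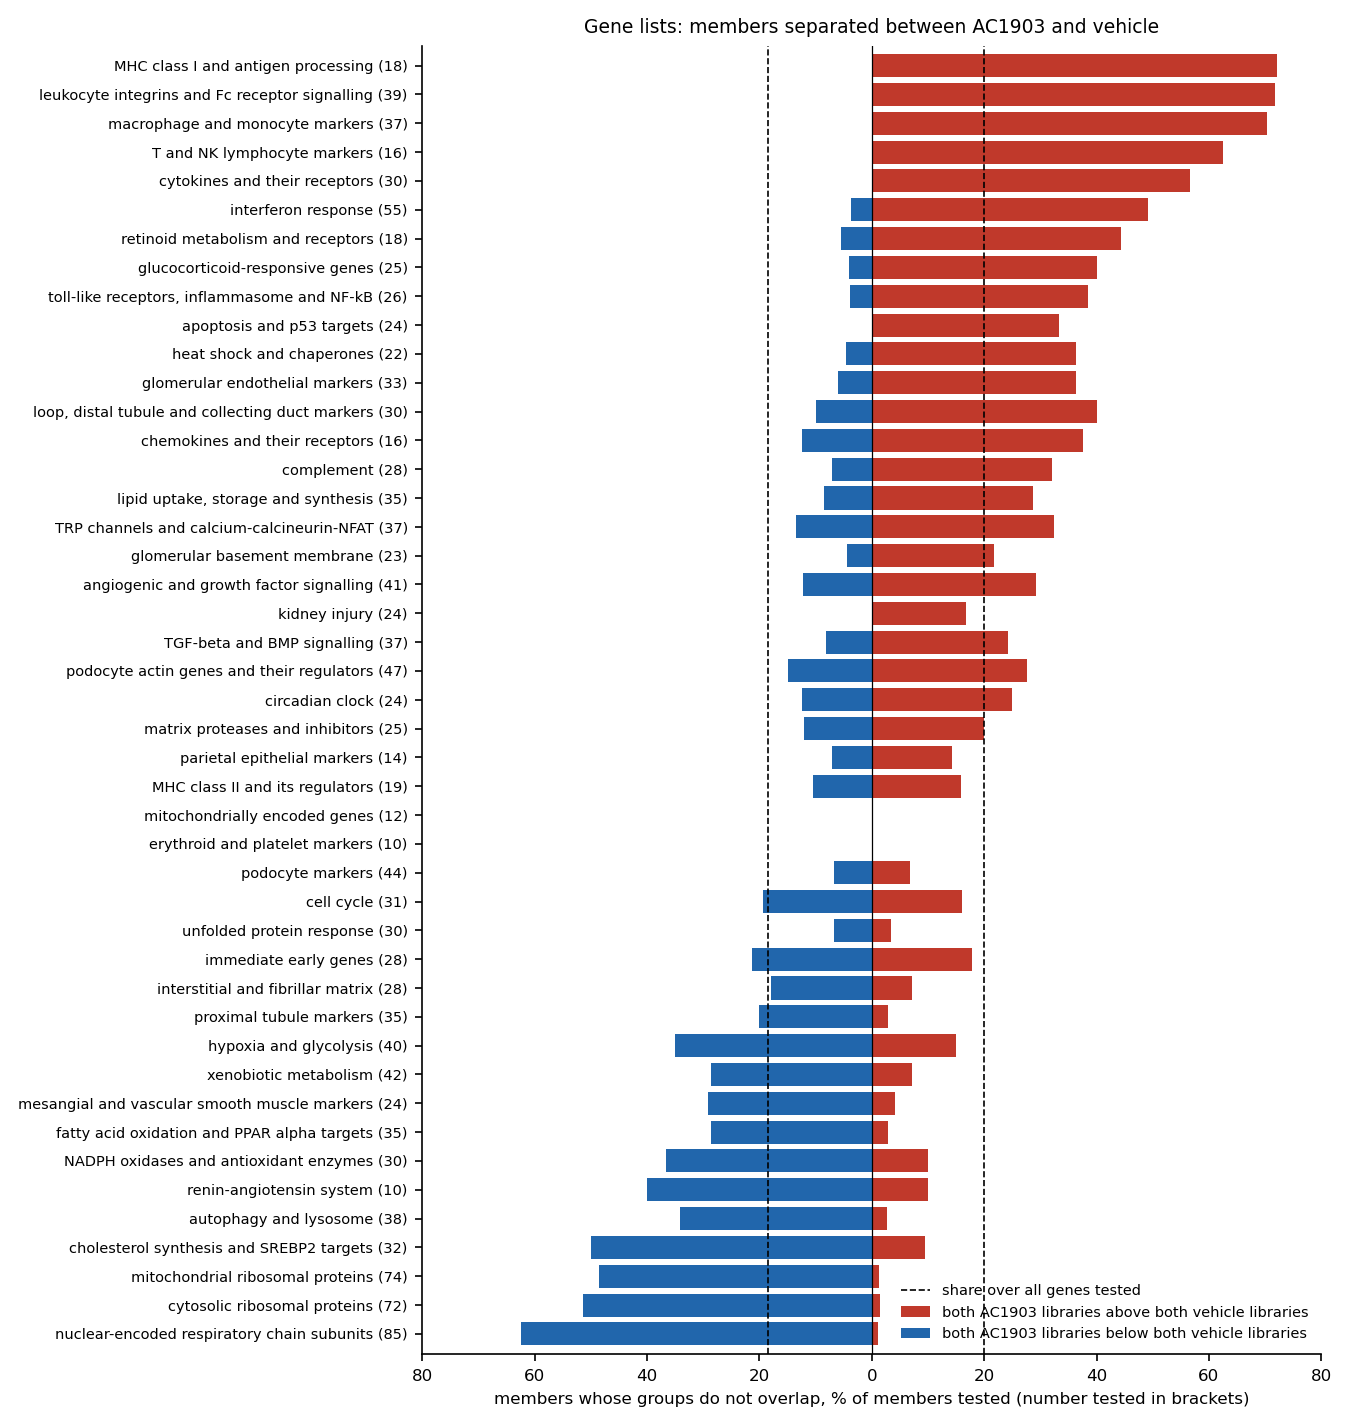
For each list with at least 10 tested members, the percentage of members with both AC1903 libraries above both vehicle libraries (red, right) or below them (blue, left), with dashed lines at 19.9% and 18.4%, the shares over all genes tested. Immune lists extend furthest to the right, up to 72.2%, and the respiratory chain list extends furthest to the left, 62.4%.

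Most genes in the lists for macrophages, for leukocyte integrins and Fc receptors, and for T and NK lymphocytes were higher with AC1903. Of 37 tested macrophage and monocyte genes, 34 had a positive log2 difference, the median was 1.31 and 7 passed in DESeq2. For 39 genes of leukocyte integrins and Fc receptor signalling, 9 of them also in the macrophage list, 35 were positive with a median of 1.3, and 7 passed. T and NK lymphocyte genes gave 14 of 16 positive with a median of 0.92, and 1 passed, CD4, which rat macrophages carry as well as helper T cells. The CD3 chains and the B cell gene MS4A1 had no ID paired with a symbol and were not analysed here. FCGR3A, the low-affinity IgG receptor CD16, stood at 12.9 and 19.1 CPM with AC1903 and 3.18 and 5.29 CPM with vehicle. LCP1, the leukocyte actin bundler L-plastin, stood at 40.6 and 87.7 against 18.3 and 24.3 CPM, and CYBB, the catalytic subunit of the phagocyte oxidase, at 18.0 and 45.0 against 11.6 and 7.49 CPM. In each of these the AC1903 libraries were apart from vehicle, and AC1903 replicate 2 was the higher of the 2. ARHGAP30, a leukocyte GTPase-activating protein, followed the same order (8.48 and 22.0 against 2.34 and 3.74 CPM).

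Cytotoxic lymphocyte genes were low in abundance. GZMA, granzyme A, stood at 3.49 and 3.36 CPM with AC1903 and 0.354 and 0.814 CPM with vehicle, and KLRD1, the CD94 chain of NK receptors, at 2.25 and 3.44 against 0.0708 and 0.733 CPM. GZMB, granzyme B, stood at 2.16 and 3.76 against 0.566 and 0 CPM, so KLRD1 and GZMB were higher in AC1903 replicate 2 and GZMA was about equal in both. CCL5, a chemokine of activated T cells, was higher in AC1903 replicate 1 (11.3 and 6.16 against 2.19 and 5.37 CPM). The granulocyte list rests on 5 tested members, of which 3 were separated: CSF3R, the granulocyte growth factor receptor (2.33 and 6.95 against 0.849 and 1.14 CPM), and the calprotectin subunits S100A9 (2.58 and 1.28 against 0.495 and 0.488 CPM) and S100A8. All 3 are low in counts, which limits their precision. The other two, EPX, the eosinophil peroxidase, and KIT, the mast cell receptor, overlapped (log2 -0.22 and -0.22). For B lymphocyte markers 7 genes were tested, 3 above and 1, CD79B of the B cell receptor, below vehicle (0.250 and 0 against 0.495 and 1.06 CPM).

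The leukocyte difference was not uniform over the macrophage list. LYZ, lysozyme, stood at 215 and 661 CPM with AC1903 and 139 and 188 CPM with vehicle, and CSF1R, which binds the growth factor of macrophages, at 33.4 and 73.5 against 17.3 and 25.8 CPM. In contrast CD74, the MHC class II invariant chain, overlapped at 220.02 and 214 against 199 and 255 CPM, and so did AIF1, the macrophage protein Iba1, at 13.6 and 20.7 against 13.2 and 15.4 CPM. The complement genes C1QA and C1QC differed by log2 0.15 and 0.37. MHC class II genes as a list had 10 of 19 positive, a median of 0.08 and 3 members above and 2 below. MERTK, a receptor for apoptotic cells, holds a large part of the list's counts and overlapped at 592 and 801 against 985 and 467 CPM. These 7 genes fall outside the rule for named genes and were chosen after their values were seen. The summed level of the whole list overlapped between the groups too, at 1425 and 2410 CPM with AC1903 and 1535 and 1171 CPM with vehicle.

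AC1903 replicate 2 carried much of the size of the macrophage difference. The list's level relative to the vehicle mean was 0.69 and 1.74 (log2) in the AC1903 libraries, -0.18 and 0.18 in the vehicle libraries and 0.14 and 0.66 in WT, so AC1903 replicate 1 was close to WT replicate 2. Without AC1903 replicate 2 the median was 0.65 for the macrophage list and 0.62 for the integrin and Fc receptor list. Erythroid markers did not move with these lists: their relative level was 2.92 and -0.88 in AC1903 replicates 1 and 2, -0.41 and 0.41 with vehicle, and 2.53 and 1.66 in WT. The library richest in leukocyte transcripts was thus the poorest in globin transcripts, with HBA1 at 96.1 and 4.80 CPM with AC1903 and 7.15 and 21.2 CPM with vehicle.

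The MHC class I pathway differed by less and more evenly. NLRC5 is described above. B2M, beta 2 microglobulin, the light chain of MHC class I, stood at 4380.4 and 3949.8 CPM with AC1903 and 2210.1 and 2371 CPM with vehicle (log2 difference 0.86, SE 0.25; edgeR adjusted p = 0.549, DESeq2 adjusted p = 0.000971), and it is named although it lay outside the rule. WT stood at 2462 and 3004 CPM. The immunoproteasome subunits PSMB8, PSMB9 and PSMB10, which replace the standard catalytic subunits under interferon, stood at 72.7 and 46.3, 54.2 and 50.4 and 55.2 and 60.5 CPM with AC1903 and at 19.96 and 27.9, 29.8 and 29.5 and 27.7 and 34.3 CPM with vehicle. Of the 3, PSMB8 passed in DESeq2 (adjusted p = 0.0274). Heavy chain genes are near-identical copies whose reads the counting can split, and their values are uncertain: the ID paired with HLA-B/HLA-G stood at 46.9 and 12.9 against 5.87 and 9.44 CPM. Over the list 15 of 18 genes were positive, with a median of 0.31 that stayed between 0.28 and 0.47 with each library left out, and 4 passed in DESeq2. The list's relative level was 0.32 and 0.40 with AC1903, -0.02 and 0.02 with vehicle and 0.11 and 0.53 in WT. The 3 negative members, PDIA3, CALR and CANX, are general chaperones of the endoplasmic reticulum, and their groups overlapped.

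Interferon response genes gave 49 positive members of 55, with 27 above (49.1%) and 2 below (3.64%) and a median of 0.38; 3 passed in DESeq2. GBP2, an interferon-induced GTPase, stood at 63.3 and 77.5 CPM with AC1903 and 32.7 and 40.5 CPM with vehicle. The ID paired with GBP1/GBP3 stood at 4.33 and 4.96 against 0.283 and 1.06 CPM, HERC6, an interferon-induced ligase, at 37.8 and 33.5 against 18.8 and 22.8 CPM, and IRF1, the transcription factor that activates class I and GBP promoters, at 73.9 and 74.2 against 49.0 and 50.7 CPM. WT lay at 45.7 and 64.3 CPM for GBP2 and 60.3 and 65.9 CPM for IRF1, between the groups or beside AC1903. The list's relative level was 0.50 and 0.41 with AC1903, -0.20 and 0.20 with vehicle and 0.33 and 0.59 in WT, so WT overlapped AC1903. The size of the list's difference depended on the vehicle libraries, since the median was 0.20 without vehicle replicate 1 and 0.61 without vehicle replicate 2. It was 0.23 without AC1903 replicate 1 and 0.61 with age as a covariate. The macrophage list and the T and NK lymphocyte list were higher in the same 2 libraries. In AC1903 replicates 1 and 2 the macrophage list stood at 0.69 and 1.74. The T and NK list stood at 1.01 and 0.85, the same order as interferon response genes (0.50 and 0.41). B lymphocyte markers, at 0.46 and 0.30, overlapped vehicle (-0.48 and 0.48). The part of leukocyte RNA in the MHC class I and interferon differences was not tested.

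Promoters of 4 of these genes are shown because their products run from the transcription factor to the presented light chain. Each line is the RefSeq (GRCr8) sequence of the 250 bases before the gene's start, on the gene's strand, with capitals marking matches to an interferon-stimulated response element of the form GAAA, any 2 bases, GAAA or to a gamma-activated sequence of the form TTCNNNGAA, both strands searched.
B2M, chr3:129549080-129549329, plus strand: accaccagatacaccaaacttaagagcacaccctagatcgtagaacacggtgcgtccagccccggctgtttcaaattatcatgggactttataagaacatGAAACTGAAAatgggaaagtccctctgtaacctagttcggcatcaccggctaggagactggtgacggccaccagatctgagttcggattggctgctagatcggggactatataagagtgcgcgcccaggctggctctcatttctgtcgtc
PSMB10, chr19:50743293-50743542, minus strand: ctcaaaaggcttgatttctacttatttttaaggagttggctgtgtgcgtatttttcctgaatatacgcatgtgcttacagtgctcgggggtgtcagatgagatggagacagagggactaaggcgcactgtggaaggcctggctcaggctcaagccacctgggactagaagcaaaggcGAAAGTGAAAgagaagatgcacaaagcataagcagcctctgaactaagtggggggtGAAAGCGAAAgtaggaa
GBP2, chr2:234005477-234005726, plus strand: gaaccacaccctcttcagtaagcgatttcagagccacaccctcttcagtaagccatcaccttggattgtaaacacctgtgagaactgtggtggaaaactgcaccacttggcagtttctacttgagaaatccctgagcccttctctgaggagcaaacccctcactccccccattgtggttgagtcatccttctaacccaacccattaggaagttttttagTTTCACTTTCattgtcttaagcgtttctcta
IRF1, chr10:38417685-38417934, plus strand: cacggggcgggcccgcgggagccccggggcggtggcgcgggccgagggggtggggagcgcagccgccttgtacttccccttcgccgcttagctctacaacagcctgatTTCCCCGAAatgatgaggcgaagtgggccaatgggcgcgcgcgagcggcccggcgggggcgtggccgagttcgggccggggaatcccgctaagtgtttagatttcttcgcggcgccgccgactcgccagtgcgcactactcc

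The first form was found in B2M beginning at position -150, in PSMB10 at -73 and -17 and in GBP2 at -31, counted from the start site, and the second in IRF1 at -142. Over all 33469 promoters of the same length, 3.41% held the first form and 7.67% the second. Of the 39 interferon response genes with a promoter entry 22 held the first (56.4%) and 10 the second (25.6%). Of the 12 MHC class I genes with an entry 6 held the first (50%) and 1 the second (8.33%). Either form was found in 27 of those 39 genes (69.2%) and 7 of those 12 (58.3%). The 4 promoters shown all hold a match and so do not stand for every member. In the list of leukocyte integrins and Fc receptor signalling the shares were 7.69% for both forms over 26 genes. For cholesterol synthesis they were 4.35% and 8.7% over 23 genes. The interferon response list was chosen for known response to interferon, so its high share was set by that choice and says nothing about these libraries. The MHC class I list also holds genes known to respond to interferon, such as the immunoproteasome subunits, so its share says nothing about these libraries either. These matches describe the letters in the window and not a measured binding site. The cause of the differences in level was not tested. No promoter entry was found for NLRC5.

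Among soluble mediators, cytokines and their receptors had 17 of 30 members above vehicle (56.7%), none below and a median of 0.41. IL1B, interleukin 1 beta, stood at 5.07 and 13.8 CPM with AC1903 and 0.354 and 2.03 CPM with vehicle and passed in DESeq2 (adjusted p = 0.0245). Its natural antagonist IL1RN stood at 3.08 and 9.27 against 1.98 and 1.47 CPM, and IL10RA, the receptor of the anti-inflammatory interleukin 10, at 2.16 and 9.75 against 0.708 and 0.977 CPM, so genes of opposite roles in inflammation were higher together. TNFRSF1B, the second TNF receptor, stood at 13.6 and 39.1 against 7.64 and 11.1 CPM. LIFR, the leukemia inhibitory factor receptor, stood at 292 and 186 against 93.6 and 117 CPM and was highest in AC1903 replicate 1. Toll-like receptor, inflammasome and NF-kB genes had 10 of 26 above and 1 below (median 0.24), with TLR8 at 6.65 and 9.99 against 2.34 and 3.99 CPM and TLR7 at 3.58 and 7.27 against 1.63 and 2.20 CPM. The median of that list was 0.105 without AC1903 replicate 2, and the cytokine median was 0.27 without AC1903 replicate 1.

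Chemokines were mixed. Of 16 tested genes 8 were positive and 8 negative, with 6 above and 2 below vehicle and a median of -0.01. CCR1, a receptor on monocytes, stood at 2.66 and 11.7 CPM with AC1903 and 2.26 and 2.20 CPM with vehicle. The 2 genes below were CXCL10, an interferon-inducible chemokine for T cells, at 4.99 and 6.08 against 10.05 and 8.55 CPM, and CXCL13, a chemokine for B cells, at 5.57 and 8.55 against 13.5 and 13.3 CPM. CXCL10 therefore lay on the other side from most interferon response genes. CCL2, the main chemokine for monocytes, overlapped at 1.33 and 2.80 against 3.61 and 0.895 CPM. In the complement list 9 of 28 were above and 2 below (median 0.13). The alternative pathway gene CFB stood at 13.7 and 25 against 7.43 and 10.3 CPM, properdin, CFP, at 11.1 and 24.5 against 4.53 and 8.71 CPM, C3 at 4.24 and 13.9 against 1.49 and 4.15 CPM, and the anaphylatoxin receptor C3AR1 at 1.75 and 6.31 against 0.495 and 1.22 CPM. An ID paired with C4A/C4B was below, at 6.49 and 4.32 against 9.48 and 17.2 CPM. Leaving out vehicle replicate 1 gave 0.28 for the complement list and 0.50 for the chemokine list, which was 0.28 without AC1903 replicate 1 and -0.11 without AC1903 replicate 2.

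Nephron segments differed in sign. Of 30 genes of the loop of Henle, distal tubule and collecting duct, 20 were positive and 12 above vehicle (40.0%) with 3 below (10%), and the median was 0.39. UMOD, uromodulin of the thick ascending limb, stood at 331 and 313 CPM with AC1903 and 225 and 192 CPM with vehicle (log2 difference 0.63, SE 0.17). EGF, made in the thick limb and distal convoluted tubule, pairs with 2 gene IDs that stood at 84.7 and 81.5 against 40.8 and 53.2 CPM and at 41.2 and 29.98 against 6.79 and 14.7 CPM. The second passed in DESeq2 (adjusted p = 0.0487), and the sums over both were 125.9 and 111.4 CPM against 47.63 and 67.88 CPM. SLC12A3, the thiazide-sensitive cotransporter, stood at 40.4 and 36.4 against 19.7 and 24.0 CPM, and KCNJ1, the ROMK potassium channel, at 41.8 and 34.2 against 19.96 and 26.1 CPM. For UMOD, EGF, SLC12A3 and KCNJ1 the 4 transgenic libraries were apart and WT lay with or near vehicle.

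Other members of the list went both ways. CLDN8, a claudin of the distal nephron and collecting duct, was above vehicle (1.58 and 2.96 against 0.778 and 0.570 CPM). AQP2, the vasopressin-regulated water channel, overlapped at 22.5 and 44.7 CPM with AC1903 and 33.9 and 35.1 CPM with vehicle, and HSD11B2, which shields the mineralocorticoid receptor from glucocorticoid, at 14.5 and 29.3 against 19.9 and 19.3 CPM. The 3 genes below vehicle were AQP3, a basolateral water channel (29.0 and 35.5 against 37.2 and 56.2 CPM), and 2 genes of intercalated cells, ATP6V1G3, a proton pump subunit (3.74 and 7.27 against 8.14 and 12.8 CPM), and SLC26A4, pendrin (6.16 and 11.6 against 13.7 and 11.6 CPM, where the nearest values differ by less than their rounding). AQP2, HSD11B2, AQP3, ATP6V1G3 and SLC26A4 were chosen after their values were seen. The median over the whole list was 0.12 without AC1903 replicate 2, 0.17 without vehicle replicate 1 and 0.25 among genes with at least 5 CPM in 2 libraries.

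Proximal tubule genes lay on the other side, with a size that turned on 1 library. Of 35 genes 31 were negative with a median of -0.36, but 7 were below vehicle (20%), close to the 18.4% over all genes, and 1 above. FBP1, the gluconeogenic fructose bisphosphatase, stood at 147 and 134 CPM with AC1903 and 165 and 356 CPM with vehicle, and SLC6A19, a neutral amino acid transporter, at 56.1 and 65.2 against 64.2 and 159.8 CPM, so vehicle replicate 2 was high and vehicle replicate 1 close to AC1903. The median of the proximal list came to 0.05 without vehicle replicate 2 and -0.69 without vehicle replicate 1, and an age covariate gave 0.22. Vehicle replicate 2, from the youngest rat, also had the highest mitochondrial share.

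Podocyte genes mostly overlapped between the groups. In the list 22 of 44 were positive and 22 negative, with a median of 0.01. SYNPO, synaptopodin, stood at 489.9 and 715 CPM with AC1903 and 809 and 399 CPM with vehicle, and WT1, the podocyte transcription factor, at 172 and 248 against 272 and 135 CPM. For SYNPO, WT1, NPHS1 and PODXL vehicle replicate 1 was the highest and vehicle replicate 2 the lowest of the 4 transgenic libraries, and the AC1903 libraries lay within that range. The vehicle libraries thus differed from each other by more than the groups did, and the median was -0.33 without vehicle replicate 2 and 0.47 without vehicle replicate 1. EZR, ezrin, which links podocalyxin to actin, was 1 of the 3 below (338 and 482 against 565 and 512 CPM), and THSD7A, a podocyte membrane antigen, 1 of the 3 above (78.5 and 97.9 against 77.6 and 51.4 CPM).

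Genes of the inhibited pathway were then examined. TRPC5 itself was not analysed here. TRPC6, the other podocyte TRPC channel, overlapped at 2.58 and 4.24 CPM with AC1903 and 4.53 and 2.85 CPM with vehicle, and TRPC1, which can pair with TRPC5 in one channel, stood at 18.8 and 14.2 against 12.7 and 8.38 CPM. TRPC1 was thus separated upward without passing (edgeR adjusted p = 0.607). Its WT libraries, at 15.6 and 13.7 CPM, lay beside AC1903. Between AC1903 replicate 2 and vehicle replicate 1, both of 20.4 weeks, it differed by log2 0.17. TRPM2, a calcium channel gated by oxidative stress and abundant in phagocytes, stood at 2.33 and 4.72 against 0.212 and 0.733 CPM. STIM2, the calcium sensor of the endoplasmic reticulum, stood at 72.8 and 75.7 against 52.6 and 59.4 CPM, and NFATC3, a calcineurin target, at 55.5 and 67.7 against 44.3 and 50.1 CPM. WT stood at 66.9 and 83.4 CPM for STIM2 and 62.0 and 55.0 CPM for NFATC3, beside AC1903. For TRPM2 it lay between the groups, at 2.19 and 2.01 CPM. Over the list of TRP channels and calcium-calcineurin-NFAT genes 12 of 37 were above (32.4%) and 5 below (13.5%), with a median of 0.01. RAC1, the GTPase that promotes TRPC5 insertion into the membrane, stood at 102 and 92.8 against 90.4 and 87.3 CPM, a log2 difference of 0.14 with SE 0.15. In the list of podocyte actin genes and their regulators 13 of 47 were above and 7 below (median 0.03), among them LIMK1, the cofilin kinase (34.4 and 27.7 against 18.9 and 13.7 CPM), the actomyosin kinases ROCK1 and ROCK2 (log2 0.37 and 0.46), and PXN, paxillin of focal adhesions (268 and 181 against 144 and 174 CPM). For LIMK1 WT lay nearer vehicle, at 16.4 and 20.6 CPM. RAC2, the leukocyte paralogue of RAC1, was also above vehicle (11.3 and 23.1 against 5.31 and 9.85 CPM).

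**Figure D3:**
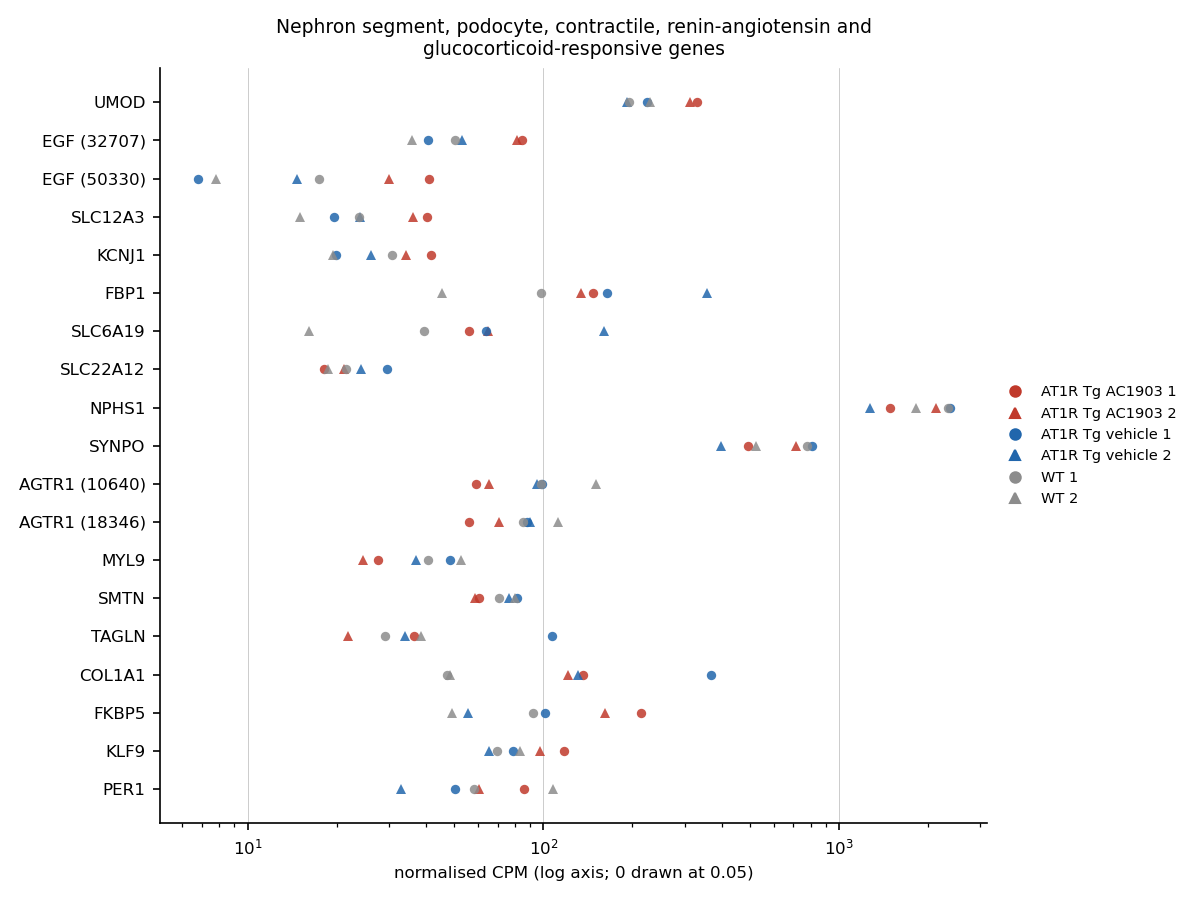
CPM on a log axis, 1 point per library, for genes of nephron segments, podocytes, contractile cells, matrix, the renin-angiotensin system and glucocorticoid response; digits in brackets are the end of the gene ID where a symbol has more than 1. The AC1903 points stand to the right for UMOD, EGF, SLC12A3 and KCNJ1 and to the left for both AGTR1 genes, while the podocyte genes NPHS1 and SYNPO have the AC1903 points inside the vehicle pair.

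Transcripts of the angiotensin receptor were lower in both AC1903 libraries. AGTR1 pairs with 2 rat genes. The first (ENSRNOG00000010640) stood at 59.2 and 65.3 CPM with AC1903, 99.3 and 95.5 CPM with vehicle and 98.2 and 151 CPM in WT, a log2 difference of -0.65 (SE 0.21; edgeR adjusted p = 0.562). The second (ENSRNOG00000018346) stood at 56.1 and 70.6, 87.8 and 89.9 and 85.3 and 112 CPM, a log2 difference of -0.49. Both had separated groups, with WT replicate 1 near vehicle and WT replicate 2 above it in each case. The labels do not say which receptor sequence the transgene carries, so its reads may or may not be counted under these IDs. ENPEP, the aminopeptidase that degrades angiotensin II, overlapped (647 and 688 against 1195 and 602 CPM), and AGTRAP, a receptor-binding protein that dampens AT1R, was lower by log2 -0.56. LNPEP, the receptor of angiotensin IV, was the 1 member above vehicle (41.2 and 40.2 against 29.3 and 18.7 CPM). Of the 10 genes tested in the renin-angiotensin list 4 were below vehicle (40.0%), with a median of -0.32. That median was -0.20 without vehicle replicate 1.

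Most marker genes of mesangial and vascular smooth muscle cells were lower too, in a list that itself holds both AGTR1 IDs. Of 24 genes 19 were negative, 7 were below vehicle (29.2%) and 1 above, with a median of -0.28, and 9 of them had an unadjusted p under 0.05 on the lower side. Both AGTR1 IDs are among the 7 and among the 9. MYL9, the smooth muscle myosin light chain, stood at 27.5 and 24.6 CPM with AC1903 and 48.3 and 37.2 CPM with vehicle, and SMTN, smoothelin, at 60.5 and 58.8 against 81.6 and 76.7 CPM. TAGLN, transgelin, overlapped (36.5 and 21.8 against 107 and 33.9 CPM), with vehicle replicate 1 alone high. SYNM, synemin, was the member above vehicle (81.2 and 62.0 against 51.5 and 42.3 CPM). The median was -0.03 without vehicle replicate 1, -0.14 without AC1903 replicate 1 and -0.47 without AC1903 replicate 2.

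Fibrillar matrix genes gave 21 negative of 28, with a median of -0.19. Of them 5 were below vehicle (17.9%), close to the 18.4% over all genes, and 2 above (7.14%). COL1A1, a type I collagen chain, stood at 136 and 121 CPM with AC1903 and 368 and 131 CPM with vehicle, against 47.1 and 48.3 CPM in WT. All 4 transgenic libraries were above both WT libraries, and AC1903 overlapped vehicle replicate 2. COL1A2 stood at 9.90 and 13.5 against 20.1 and 18.1 CPM with 16.1 and 17.8 CPM in WT, DCN, decorin, at 1.25 and 1.84 against 8.28 and 2.36 CPM, and VCAN, versican, was above vehicle (28.0 and 42.5 against 14.4 and 24.2 CPM). FN1, fibronectin, and TGFB1 overlapped (144 and 219 against 209 and 186 CPM and 28.7 and 42.0 against 39.1 and 39.7 CPM). Without vehicle replicate 1 the matrix median was 0.07, and it was -0.47 without vehicle replicate 2 and -0.39 without AC1903 replicate 2. Of the glomerular basement membrane list 5 of 23 were above (21.7%), close to the 19.9% over all genes. LAMB1 was the 1 below (4.35%), and the 2 IDs of COL4A3 overlapped. HAVCR1, the tubular injury molecule, was at 0.915 and 1.68 against 0.566 and 0.814 CPM for 1 of its IDs and 3.58 and 2.08 against 3.26 and 4.48 CPM for the other.

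Glucocorticoid-responsive genes had 10 of 25 above vehicle (40.0%) and 1 below, with a median of 0.24. FKBP5, a chaperone that binds and restrains the glucocorticoid receptor, stood at 215 and 161 CPM with AC1903, 101 and 55.6 CPM with vehicle and 92.6 and 49.0 CPM in WT. KLF9 stood at 118 and 97.0 against 78.9 and 65.3 CPM, KLF15 at 43.4 and 31.7 against 28.9 and 19.0 CPM, and ERRFI1, an inhibitor of EGF receptor signalling, at 27.8 and 21.2 against 16.6 and 17.1 CPM. PER1, which is also a clock gene, stood at 85.9 and 60.5 CPM with AC1903 and 50.2 and 33.0 CPM with vehicle, but 58.2 and 108 CPM in WT, so WT replicate 2 was the highest of the 6. ZBTB16, described above, was the only member to pass in DESeq2. The median was 0.36 without AC1903 replicate 2, 0.17 without vehicle replicate 2 and 0.13 without AC1903 replicate 1. The same-age pair, AC1903 replicate 2 and vehicle replicate 1 at 20.4 weeks, gave 0.13, and its ZBTB16 difference was 2.80 on the log2 scale.

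Heat shock and chaperone genes were above vehicle in 8 of 22 cases (36.4%) with 1 below. DNAJA1, a co-chaperone of HSP70, stood at 314 and 273 CPM with AC1903 and 186 and 187 CPM with vehicle. CHORDC1, a co-chaperone of HSP90, stood at 55.0 and 57.4 against 36.2 and 36.6 CPM, and HSPA8, the constitutive HSP70, at 251 and 254 against 209 and 172 CPM. The member below was mitochondrial, HSPE1 (86.1 and 88.2 against 111 and 138 CPM). The list's median was 0.15, and it was -0.12 without AC1903 replicate 2. Vehicle replicate 1 left out gave 0.30 and vehicle replicate 2 left out gave 0.04. Retinoid genes had 8 of 18 above (44.4%) and 1 below with a median of 0.25. Those above included CYP26B1 and the receptor RARG (115 and 118 against 85.6 and 89.8 CPM). WT lay beside AC1903 for RARG, at 105 and 117 CPM, but with vehicle for CYP26B1. The retinoid median was 0.005 without AC1903 replicate 2 and 0.085 among genes with at least 5 CPM in 2 libraries.

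Glomerular endothelial markers had 25 positive of 33, 12 above (36.4%) and 2 below (6.06%), and none had an unadjusted edgeR p under 0.05. EHD3, a trafficking protein specific to glomerular endothelium, stood at 1775 and 1154 CPM with AC1903 and 877 and 1109 CPM with vehicle, and CDH5, the endothelial cadherin, at 203 and 148 against 124 and 138 CPM. PLVAP, the diaphragm protein of fenestrae, was 1 of the 2 below (41.8 and 33.7 against 55.6 and 43.6 CPM). EDNRB, the endothelin B receptor, is not in this list but in that of angiogenic and growth factor signalling, and stood at 938 and 636 against 469.6 and 459.7 CPM. For EHD3, CDH5 and EDNRB AC1903 replicate 1 was the highest library. The endothelial median of 0.19 became -0.06 without that library.

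Cholesterol synthesis genes were, of the 47 lists, the one whose median moved least when each library was left out. Of 32 genes 24 were negative, 16 below vehicle and 3 above, with a median of -0.33 that ran from -0.35 to -0.31 with each library left out. The relative level of the list was -0.29 and -0.25 with AC1903 and 0.004 and -0.004 with vehicle. MSMO1, a sterol methyl oxidase, stood at 30.9 and 30.1 CPM with AC1903 and 55.3 and 44.6 CPM with vehicle, CYP51A1, lanosterol demethylase, at 25.1 and 21.3 against 37.6 and 33.8 CPM, and SQLE, squalene epoxidase, at 6.74 and 10.6 against 17.4 and 14.0 CPM. INSIG1, the sterol sensor that SREBP2 induces, stood at 36.1 and 40.2 against 78.6 and 49.9 CPM. ABCA1, which exports cholesterol and is induced by liver X receptors, lay in the opposite direction (18.5 and 21.6 against 11.6 and 13.2 CPM). For HMGCS1, described above, WT lay with vehicle (53.8 and 72.8 CPM), while for CYP51A1 it stood at 31.4 and 38.9 CPM and for MSMO1 at 34.1 and 49.0 CPM.

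Nuclear-encoded subunits of the respiratory chain were lower in a narrow band. Of 85 genes 82 were negative and the median was -0.32, with quartiles of -0.40 and -0.22. NDUFS8 of complex I stood at 52.1 and 46.1 CPM with AC1903 and 63.8 and 89.4 CPM with vehicle, an ID of UQCRB of complex III at 34.5 and 31.8 against 42.7 and 48.9 CPM, and ATP5D of the ATP synthase at 162 and 154 against 198 and 231 CPM. WT lay at 49.2 and 48.5 CPM for NDUFS8 and 137 and 150.5 CPM for ATP5D, beside AC1903, so for these genes vehicle was the group that stood apart. The relative level of the list was -0.24 and -0.35 with AC1903, -0.14 and 0.14 with vehicle and -0.44 and -0.45 in WT. Its median was -0.16 without vehicle replicate 2 and -0.19 for the same-age pair. The 12 mitochondrially encoded genes had no separated member and a median of -0.08, for example MT-ND1 at 25889 and 23566 against 17556 and 35737 CPM. The sign of that median turned on the vehicle libraries: vehicle replicate 1 left out gave -0.49, vehicle replicate 2 left out gave 0.46, and the same-age pair gave 0.42.

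Most ribosomal protein genes were lower too, but their WT levels differed from those of the respiratory chain list. Cytosolic ones were negative in 65 of 72 cases (median -0.21) and mitochondrial ones in 64 of 74 (median -0.23). The relative level of the cytosolic list was -0.13 and -0.29 with AC1903, -0.02 and 0.02 with vehicle and -0.07 and 0.35 in WT. WT thus lay above both AC1903 libraries, and the median was -0.18 without vehicle replicate 2. For the mitochondrial list WT stood at -0.21 and -0.14, near AC1903 (-0.22 and -0.24). RPLP2, an acidic stalk protein, stood at 106 and 126 CPM with AC1903 and 152 and 169 CPM with vehicle, and RPS23 at 296 and 274 against 350.02 and 359 CPM. MRPL2 stood at 15.3 and 13.4 against 20.7 and 23.4 CPM, and MRPS16 at 24.6 and 24.1 against 30.1 and 40.5 CPM. Fatty acid oxidation genes had 29 negative of 35 and 10 below vehicle (28.6%). ACADM, the medium-chain dehydrogenase, stood at 160.1 and 138 against 170.5 and 259 CPM and ECI1 at 47.2 and 35.6 against 52.1 and 72.0 CPM, with vehicle replicate 2 highest for both. That list's median of -0.29 was -0.02 without vehicle replicate 2, as the proximal tubule list's was near 0 without the same library. The part of tubular RNA in the metabolic lists was not tested. Autophagy and lysosome genes had 13 of 38 below (34.2%) and 1 above, among them the lysosomal transcription factor TFEB (20.8 and 18.5 against 27.2 and 26.7 CPM) and WIPI1 (15.8 and 17.7 against 24.1 and 24.4 CPM). Without vehicle replicate 2 the median was -0.07 for autophagy and lysosome genes and -0.14 for mitochondrial ribosomal proteins. Without AC1903 replicate 1 it was -0.33 for cytosolic ribosomal proteins, and without AC1903 replicate 2 -0.28 for autophagy and lysosome genes.

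**Figure D4:**
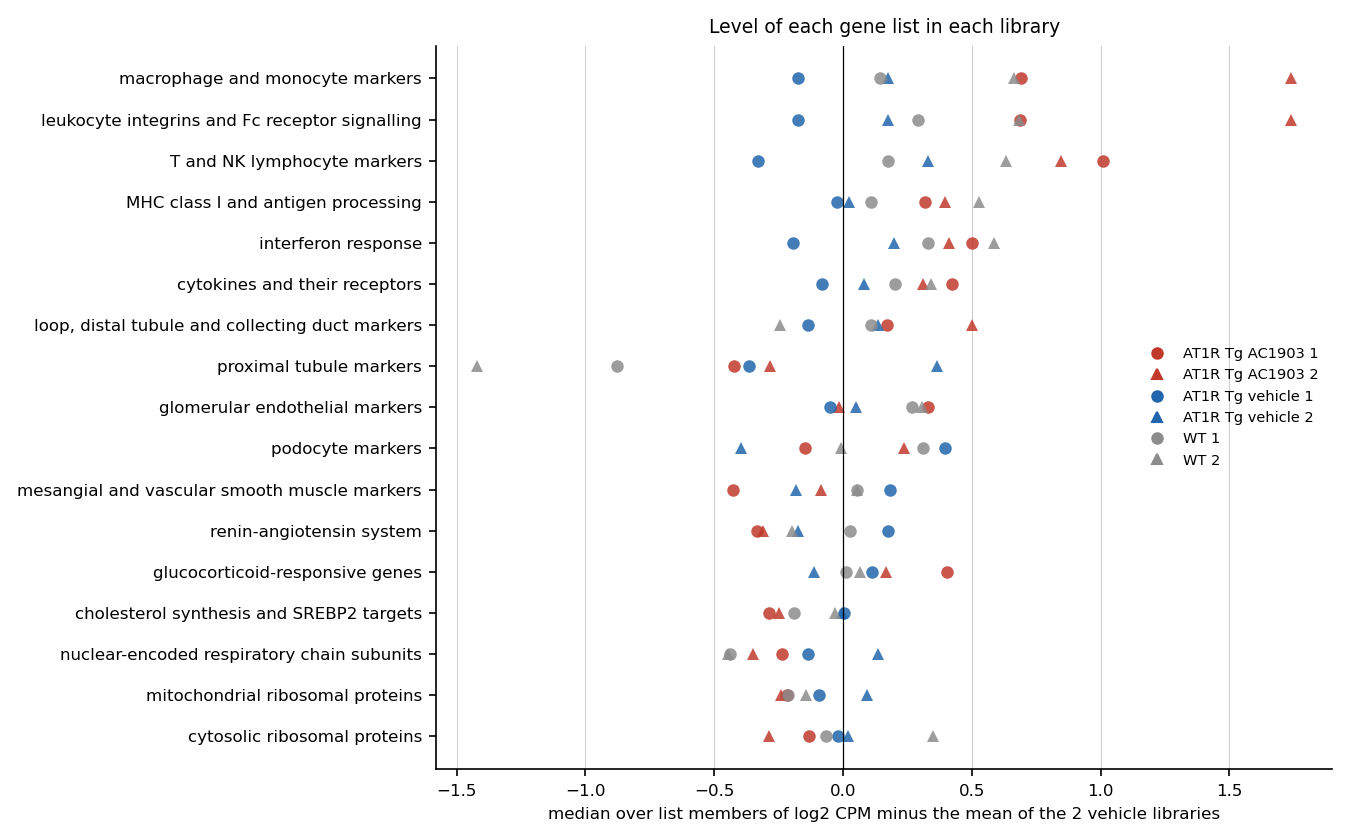
Level of 17 lists in each of the 6 libraries, as the median over members of log2 CPM minus the mean of the vehicle libraries. AC1903 replicate 2 lies furthest right for the macrophage and the integrin lists (1.74), both AC1903 libraries lie together for MHC class I (0.32 and 0.40) and cholesterol synthesis (-0.29 and -0.25), and the vehicle libraries spread widely for podocyte and proximal tubule markers.

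The 2 libraries of the same age, AC1903 replicate 2 and vehicle replicate 1 at 20.4 weeks, allow a look without the age difference, as values with no test. The macrophage list differed by a median of 1.94 between them, MHC class I by 0.33, interferon response by 0.60, loop and distal genes by 0.52, cholesterol synthesis by -0.28, the renin-angiotensin list by -0.25 and cytosolic ribosomal proteins by -0.27. Proximal tubule genes were at 0.05 and podocyte genes at -0.14. AGTR1 differed by -0.60 and -0.31, NLRC5 by 2.31, UMOD by 0.48 and FKBP5 by 0.67.

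**Figure D5:**
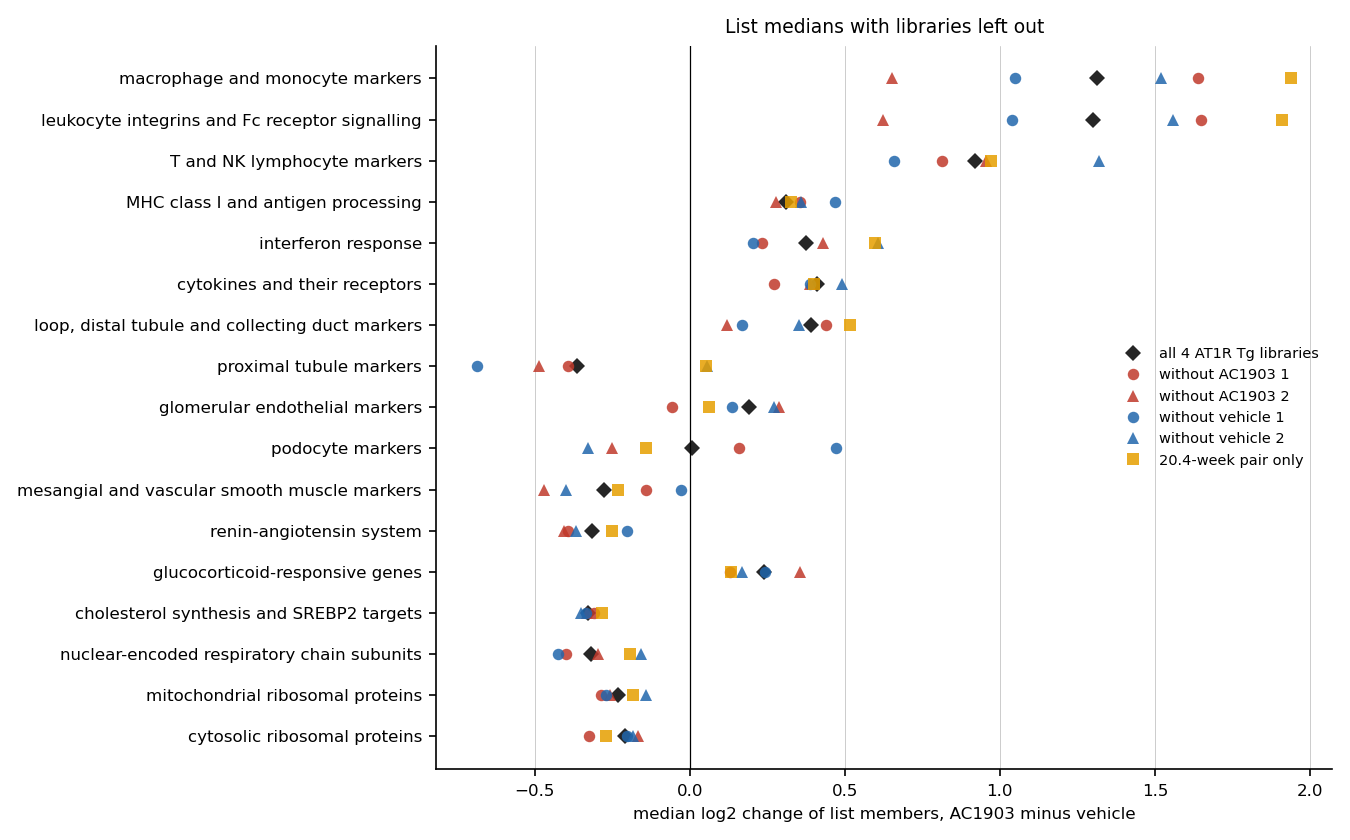
Median log2 difference of the same 17 lists with all libraries, with each of the 4 transgenic libraries left out, and for the pair of 20.4 weeks. The markers of the cholesterol list lie almost on each other between -0.35 and -0.28, those of the macrophage list spread from 0.65 to 1.94 on one side of 0, and those of the proximal tubule and podocyte lists fall on both sides of 0.

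The authors' deposited table for this comparison lists 46 of its 12182 rows with an adjusted p under 0.05, 45 of them higher with AC1903 and 1 lower, and 39 of those were among the DESeq2 calls here. Several DESeq2 calls outside the rule for named genes were abundant and are given as chosen after their values were seen. ACER2, an alkaline ceramidase of the Golgi, stood at 1241 and 693 CPM with AC1903 and 430.3 and 367 CPM with vehicle. HECW2, a ubiquitin ligase, stood at 363 and 221 against 119 and 112 CPM, and TMEM2, a cell-surface hyaluronidase, at 269 and 133 against 66.9 and 87.3 CPM. For these 3 genes both AC1903 libraries were above vehicle and replicate 1 was the higher, the reverse of the order seen in macrophage genes. MYO1G, a myosin of leukocytes, kept the macrophage order (8.73 and 22.5 against 0.778 and 2.85 CPM).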

How the data were processed

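Polyadenylated RNA of isolated glomeruli was sequenced after an automated Illumina TruSeq stranded preparation, per the labels' protocols. Expected counts per Ensembl gene were deposited by the authors. STAR 2.5.2b, RSEM 1.3.0 and the build Rnor_5.0 come from the submitters' processing notes. The release of the annotation was not given in the sources used here. RSEM estimates how reads divide between near-identical genes, so such copies are uncertain. The authors also deposited log2 fold changes and adjusted p-values, per the file headers. Only the number of rows they call was taken from these. Symbols, which are human ones in capitals, came from the authors' tables for 12302 of the 13426 genes tested.

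Here, expected counts of 26319 genes were rounded and filtered with filterByExpr by group. TMM factors (trimmed mean of M values) scaled the libraries. edgeR 4.0.16 (R 4.3.3) fitted all 6 libraries, with 3 residual degrees of freedom, by its quasi-likelihood test, two-sided, and p-values of the 13426 genes were adjusted by Benjamini and Hochberg's method, with calls at 0.05. Biological variation between replicates came to a common coefficient of 23%. DESeq2 1.42.0, limma 3.58.1 (voom) and the other alternatives are given in the closing section. The scripts were tested on simulated counts. With 2 libraries against 2, a two-sided exact permutation test cannot go below p = 0.3333. Replicates of a group differed by more than sampling noise (chi-square per degree of freedom of 19 with AC1903 and 92.8 with vehicle), so none was treated as a duplicate. List levels per library used log2 CPM with a prior count of 2. Total expected counts ran from 12325515 to 36026772, and floors of 3 counts cover counting error only.

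Members, lists and rules were chosen with earlier results of these data known. The rule for named genes took genes with a symbol, a mean of at least 1 CPM in the 4 transgenic libraries and separated groups, up to 15 per direction by smallest p since none passed. It also took up to 6 members of each of 47 lists by smallest p, and a fixed set with AGTR1, TRPC6, RAC1, NPHS1, SYNPO, WT1, PODXL, COL1A1, COL4A3, FN1, TGFB1, CCL2 and HAVCR1. TRPC5 and LCN2 were in that set and are not analysed here, and some genes that the rule admits are not reported here. Promoter sequences and motif counts used RefSeq (GRCr8) symbols.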

Additional observations from a re-analysis of the deposited data

How the results depend on the processing

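With 2 libraries a side, small differences are beyond reach, AC1903 is not balanced for age, and the labels' replicate numbers pair no animals. The count of 0 genes in edgeR also held with DESeq2 size factors, upper-quartile scaling, library totals, mitochondrially encoded genes left out, a 5 CPM filter, robust estimation, the 4 transgenic libraries alone and limma-voom. It was 62 in DESeq2, 114 with no filter on low counts, 1 with age as a covariate and 2 with a replicate block, and ran from 0 to 4 with each library left out: 2 without AC1903 replicate 2 and 4 without vehicle replicate 2. The cause was not tested. The 2 genes of the replicate block were ZBTB16 and SLFN12/SLFN12L. Deviations of same-numbered AC1903 and vehicle libraries correlated at -0.0409, so the numbers are shared names only. The 5141 genes with separated libraries became 5292 to 9987 with each library left out, since 1 library against 2 separates more often.

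Of 2397 values of 187 named gene IDs under alternatives that kept every library, 2280 kept sign and side, 85 passed the threshold and 32 changed sign. For the pair of the same age they were AQP2 (0.40), CD74 (0.10), COL4A3 (-0.0647 for 1 ID), EBNA1BP2 (0.13), FN1 (0.0697), HBA1 (-0.57), MT-ND1 (0.43), PODXL (-0.0727), SLC6A19 (0.0231), TGFB1 (0.11) and WT1 (-0.13). With age as a covariate they were AQP2 (0.40), AQP3 (0.11), C1QA (-0.0866), CD74 (0.00712), FN1 (0.00658), KIT (0.046), MT-ND1 (0.27), PODXL (-0.0417), SLC6A19 (0.30), TGFB1 (0.000841) and WT1 (-0.13). In limma-voom CCL2 (0.0411), MERTK (0.0308), NPHS1 (0.0434) and SYNPO (0.0671) changed sign, with the replicate block MERTK (0.0207), NPHS1 (0.0496) and SYNPO (0.0903), with library totals AQP2 (0.00674) and CANX (0.00214) and with upper-quartile scaling SYNPO (0.0034). With each library left out in turn, 162 of the 187 kept their sign. The others ran from -0.11 to 0.50 (AIF1), -0.65 to 0.34 (AQP2), -0.48 to 0.0537 (CALR), -0.198 to 0.142 (CANX), -0.81 to 1.20 (CCL2), -0.23 to 0.11 (CD74), -0.237 to 0.803 and -0.014 to 0.773 (COL4A3), -0.00609 to 0.919 (EBNA1BP2), -0.85 to 0.15 (ENPEP), -0.65 to 0.27 (EPX), -0.169 to 3.08 (FAM50A), -0.49 to 0.11 (FN1), -1.60 to 2.81 and -4.37 to 7.42 (HBA1), -0.47 to 0.54 (HSD11B2), -0.586 to 0.00607 (KIT), -0.51 to 0.58 (MERTK), -0.53 to 0.49 (MT-ND1), -0.40 to 0.50 (NPHS1), -0.25 to 0.47 (PODXL), -0.43 to 0.59 (SYNPO), -0.49 to 0.0557 (TGFB1), -0.55 to 0.26 (TRPC6) and -0.38 to 0.63 (WT1). The cause was not tested. A floor of 3 counts, 0.2108 to 0.2434 CPM in the transgenic libraries, limits what depth can show for genes near 0.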

Other observations

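Other gene lists were mixed, and none of their members passed in edgeR. In pairs of values joined by against, AC1903 comes first and vehicle second, replicates 1 and 2 in each. Unfolded protein response genes had 1 of 30 members above vehicle and 2 below, and kidney injury genes 4 of 24 above and none below, with HMOX1, heme oxygenase 1, at 3.24 and 7.59 CPM with AC1903 and 2.76 and 1.79 CPM with vehicle. Cell cycle genes had 5 of 31 above and 6 below, and the proliferation marker MKI67 stood at 2.33 and 4.72 against 1.84 and 2.28 CPM. Circadian clock genes had 6 of 24 above and 3 below. Immediate early genes had 5 above and 6 below of 28, with ARC at 49.9 and 48.9 against 99.1 and 52.6 CPM and DUSP5, a phosphatase of ERK, at 11.9 and 16.9 against 8.49 and 5.62 CPM. Glycolysis and hypoxia genes had 14 of 40 below (35.0%) and 6 above, with a median of -0.20 that was -0.07 without vehicle replicate 2, and with PGK1 at 229 and 242 against 275 and 339 CPM but PFKP, the platelet phosphofructokinase, above at 11.1 and 11.5 against 7.64 and 7.57 CPM. Xenobiotic metabolism genes had 12 of 42 below and 3 above, and their median of -0.30 was 0.03 with age as a covariate and -0.12 without vehicle replicate 2. CYP24A1, which degrades active vitamin D, was 1 of the 3 above (17.8 and 39.6 against 13.2 and 10.6 CPM), beside CYP26B1. Lipid genes had 10 of 35 above and 3 below with a median of 0.10, which was -0.05 without AC1903 replicate 2 and -0.000405 among genes with at least 5 CPM in 2 libraries, with the lipase LIPE at 77.4 and 57.1 against 40.5 and 46.0 CPM.

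Some gene IDs that bear the same symbol divided their counts differently from library to library. FAM50A had an ID at 0 and 0 CPM with AC1903 and 42.5 and 0 CPM with vehicle, which DESeq2 called lower, while the sum over both IDs was 41.59 and 44.28 CPM with AC1903 and 47.56 and 48.19 CPM with vehicle. HMGN1 had an ID at 0.0832 and 99.8 against 250.02 and 119.6 CPM and sums of 186.9 and 199.5 against 250.1 and 239.1 CPM. HLA-DMB had IDs at 10.5 and 36.9 against 8.99 and 0 CPM and at 10.5 and 0 against 8.99 and 24.2 CPM. EBNA1BP2 had an ID at 0 and 19.2 against 17.5 and 20.02 CPM and sums between 34.96 and 40.05 CPM in the transgenic libraries. Of the 3 DESeq2 calls whose groups overlapped, FAM50A was 1. The other two had no symbol: ENSRNOG00000045562 stood at 0 and 197 CPM with AC1903, 0 and 0 CPM with vehicle and 105 and 3.77 CPM in WT, and ENSRNOG00000046836 at 0 and 0, 0 and 7.98 and 0 and 114 CPM. These genes were chosen after their values were seen.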
